A study of Mus musculus with 10 samples.

Results

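The myocyte enhancer factor 2 (MEF2) family and the class IIa histone deacetylases (HDACs) were followed by RNA-sequencing in C2C12 cells, a mouse myoblast line that fuses into myotubes when serum is withdrawn. The members are the 4 MEF2 genes (*Mef2a*, *Mef2b*, *Mef2c* and *Mef2d*) and the 4 class IIa deacetylase genes (*Hdac4*, *Hdac5*, *Hdac7* and *Hdac9*), taken by symbol from a table of 55359 genes, so that 8 of the 55359 genes are described here. All cells were C2C12 myoblasts given siRNA at 100 nM, either a control sequence (si-Control, 5 libraries) or one against *Fndc1* (si-*Fndc1*, 5 libraries). Sample labels place the cells at day 4 of differentiation, whereas the text of the series names 48 h after transfection. The labels do not say that the libraries of a group came from separate cultures, so p-values measure the spread between these libraries, which may be technical. The line stands in for muscle cells in culture, without the vessels, nerves and immune cells of a muscle.

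MEF2 proteins are DNA-binding factors with an N-terminal MADS box. They bind an A/T-rich element in the control regions of many muscle genes and act beside the myogenic factors of the MyoD family during differentiation. Class IIa HDACs have little catalytic activity of their own towards acetyl-lysine, bind MEF2 through an N-terminal stretch and hold its targets down together with corepressor complexes. Once phosphorylated by kinases such as the salt-inducible, protein kinase D and CaM kinases, they are bound by 14-3-3 proteins and kept in the cytoplasm, which frees MEF2. RNA levels do not report phosphorylation or location, and neither was measured here.

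The start of the coding sequence of the 3 MEF2 genes that reached the level for testing is shown because it codes for the MADS box and because the genes differ there in base composition. The first 150 bases from the start codon are given 5′ to 3′ from the longest coding transcript of each gene (GENCODE, mouse build NCBIM37), and capitals mark the bases that differ from *Mef2c*.
Mef2a: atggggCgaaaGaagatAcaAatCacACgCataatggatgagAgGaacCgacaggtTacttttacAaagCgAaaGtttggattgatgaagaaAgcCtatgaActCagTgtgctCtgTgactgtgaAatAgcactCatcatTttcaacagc
Mef2c: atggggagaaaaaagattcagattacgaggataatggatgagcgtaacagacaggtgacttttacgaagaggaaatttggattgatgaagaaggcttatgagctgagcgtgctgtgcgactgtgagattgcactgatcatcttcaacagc
Mef2d: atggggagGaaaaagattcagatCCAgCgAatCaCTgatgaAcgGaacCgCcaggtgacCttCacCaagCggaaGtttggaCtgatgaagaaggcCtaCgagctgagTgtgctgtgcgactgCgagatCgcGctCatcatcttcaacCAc
*Mef2a* differed from *Mef2c* at 27 of the 150 bases and *Mef2d* at 28. The stretch held 41.3% G and C in *Mef2a*, 43.3% in *Mef2c* and 52.7% in *Mef2d*. Over the whole transcript the values were 42.0% for *Mef2a*, 41.3% for *Mef2c* and 55.03% for *Mef2d*. Among the deacetylases *Hdac4* had 56.7%, *Hdac5* 58.8%, *Hdac7* 60.6% and *Hdac9* 44.4%, and *Mef2b* had 64.2%.

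Promoters are shown for the members that carry a MEF2 element themselves. RefSeq promoters of GRCm38.p6 (250 bases before to 50 after the start of transcription) were found for all 8 members, 14 promoters in all, and searched on both strands for the MEF2 element and for the E-box CANNTG. The MEF2 element, marked in capitals below, lay in 2 of the 14, those of *Mef2a* and *Hdac5*, against 3.19% of all 32851 promoters of this length. An E-box lay in 8 of the 14 and in 72.3% of all promoters.
Mef2a, chr7:67372809-67373108, minus strand: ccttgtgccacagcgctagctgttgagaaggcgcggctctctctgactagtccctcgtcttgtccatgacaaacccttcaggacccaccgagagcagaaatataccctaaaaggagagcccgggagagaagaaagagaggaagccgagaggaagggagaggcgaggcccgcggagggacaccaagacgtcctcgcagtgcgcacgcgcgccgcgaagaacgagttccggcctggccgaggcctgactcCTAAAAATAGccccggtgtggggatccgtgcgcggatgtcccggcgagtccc
Hdac5, chr11:102230123-102230422, minus strand: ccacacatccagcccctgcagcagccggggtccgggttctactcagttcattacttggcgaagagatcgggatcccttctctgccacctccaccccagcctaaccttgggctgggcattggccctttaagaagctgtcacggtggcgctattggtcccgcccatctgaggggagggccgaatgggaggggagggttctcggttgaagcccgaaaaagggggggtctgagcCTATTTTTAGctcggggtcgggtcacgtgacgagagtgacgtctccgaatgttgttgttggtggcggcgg
In *Mef2a* the element began 2 bases before the start, and in *Hdac5* 20 bases before it. A match is a description of the letters and not a bound site.

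The targeted gene checks the labels. *Fndc1* had 26.7, 24.7, 28.7, 29.6 and 29.2 FPKM in si-Control libraries 1 to 5 and 20.4, 23.5, 20.8, 21.1 and 18.7 FPKM in si-*Fndc1* libraries 1 to 5, where FPKM is the number of fragments scaled to gene length and to the counts of the library. No si-*Fndc1* library reached the lowest control, as was so for 13.0% of all tested genes. The mean was 0.752 times that of si-Control (exact permutation test, two-sided, p = 0.00794, below which 5 libraries against 5 cannot go). Its log2 fold change was -0.40 (edgeR adjusted p = 0.000934), and -0.23 (edgeR adjusted p = 0.00837) with the trend of counts with GC content and length as an offset. Libraries held 66771605 to 75995168 counts for si-Control, and for si-*Fndc1* 56332844 to 72839369. In a principal component analysis the first component (41.2% of the variance) separated the groups, and si-Control 5 and si-*Fndc1* 2 stood apart on the second (9.92%). Myogenic identity markers were present at up to 1898 FPKM (*Acta1*, mean of si-Control), whereas adipocyte markers summed to at most 0.0520 FPKM in any library and endothelial markers to at most 0.292. Liver markers separated the groups. Their summed level ranged over the si-Control libraries from 0.0770 to 6.49 FPKM and over the si-*Fndc1* libraries from 58.1 to 199 FPKM, and all 15 that were tested, of 18, rose. The part of this liver signal in the results on the members was not tested. In bulk RNA fewer cells of a type and less RNA per cell cannot be told apart.

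The level of the members is given first. *Mef2d* was the highest member on the FPKM scale in both groups, at 36.2 ± 2.49 FPKM in si-Control and 30.2 ± 2.37 in si-*Fndc1* (SD, n = 5 each). It was followed in si-Control by *Mef2a* (12.9 ± 0.490), *Hdac7* (11.9 ± 0.563), *Hdac5* (11.5 ± 0.480) and *Mef2c* (11.2 ± 1.06), whose ranges overlapped from each to the next. *Hdac4* (3.15 ± 0.161), *Hdac9* (0.922 ± 0.0414) and *Mef2b* (0.0991 ± 0.0940) came last, each without overlap with its neighbour above. In si-*Fndc1* the order was the same except that *Mef2c* (10.5 ± 1.30) lay between *Mef2a* (13.1 ± 0.642) and *Hdac7* (9.72 ± 0.289), with overlapping ranges. The level depends on the length behind it. The deposited count and FPKM together imply a length of 17498 bases for *Mef2c*, 16340 for *Mef2a* and 6662 for *Mef2d*, longer than the longest coding transcripts of 6451, 5538 and 5401 bases. Per kilobase of those transcripts, on TMM-scaled CPM (counts relative to library size), *Mef2d* was at 44.6 ± 3.01, *Mef2a* at 38.0 ± 1.43, *Mef2c* at 30.4 ± 2.85 and *Hdac5* at 23.2 ± 0.939 in si-Control (SD, n = 5), so that all 3 MEF2 genes lay above every deacetylase and no ranges overlapped among these 4. On that scale *Mef2a* had the highest mean in si-*Fndc1*, ahead of *Mef2d* at 37.4 ± 2.97, but the ranges of these genes overlapped there.

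**Figure D1:**
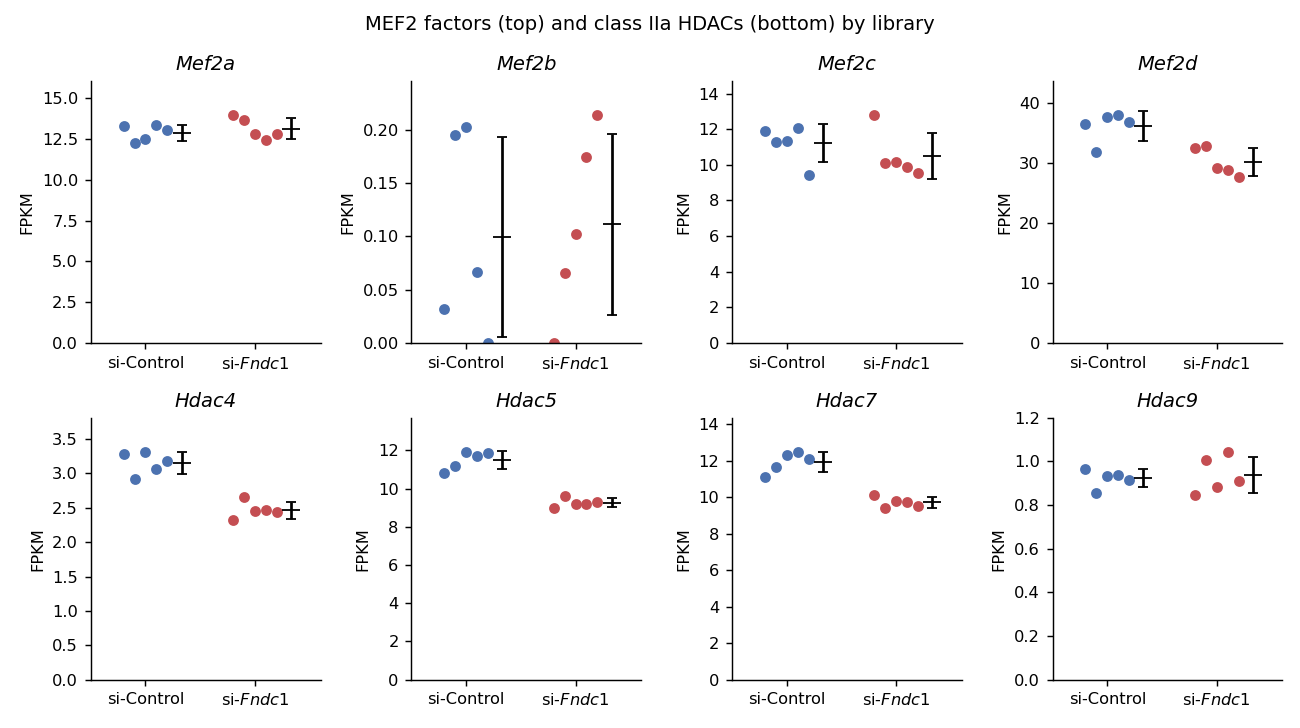
Level of each member in FPKM (vertical axis, from 0) in the 5 si-Control and 5 si-*Fndc1* libraries; each point is a library, and the bar beside the points is the mean with 1 SD. For *Hdac4*, *Hdac5* and *Hdac7* every si-*Fndc1* point lies below every si-Control point, and for the other members the groups overlap.

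Differences between the groups were tested with edgeR's quasi-likelihood test over the 13548 genes with a mean of at least 0.5 FPKM, with Benjamini-Hochberg adjustment over all of them. Of the 8 members 7 were tested. At an adjusted p-value under 0.05, 4 members fell in si-*Fndc1* (*Hdac4*, *Hdac5*, *Hdac7* and *Mef2d*) and 0 rose, where 17.2% of all tested genes fell and 17.3% rose. The falls were of 16.5% to 21.9% in mean FPKM. These calls depended on how transcript composition was treated. With the trend of counts with GC content and length in every library taken as an offset, 0 of the 7 were called (11.3% of 11185 genes fell and 11.5% rose). At an unadjusted p-value under 0.05, 0 of the 7 passed with that offset as well. Both sets of values are given member by member.

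*Hdac5* and *Hdac7* are the class IIa deacetylases with the highest level in these cells. *Hdac5* had 10.8, 11.2, 11.9, 11.7 and 11.9 FPKM in si-Control libraries 1 to 5 and 8.98, 9.62, 9.17, 9.19 and 9.29 in si-*Fndc1* libraries 1 to 5. All si-*Fndc1* libraries lay below all controls, as for 13.0% of tested genes. Its log2 fold change, si-*Fndc1* over si-Control, was -0.31 ± 0.04 (SE), with an adjusted p-value of 0.000110 in edgeR. The mean level fell by 19.6% (exact permutation test, two-sided, p = 0.00794). *Hdac7* had 11.1, 11.7, 12.3, 12.5 and 12.1 FPKM in the control libraries and 10.1, 9.41, 9.80, 9.75 and 9.48 after the knockdown, again without overlap. Its log2 fold change was -0.29 ± 0.04 (SE, edgeR adjusted p = 0.000274), a fall of 18.5% in mean FPKM (exact permutation test, p = 0.00794). With the offset the log2 fold change was -0.01 ± 0.03 (SE, adjusted p = 0.910) for *Hdac5* and 0.02 ± 0.04 (SE, adjusted p = 0.765) for *Hdac7* in edgeR, so that the direction of *Hdac7* turned.

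*Hdac4*, the class IIa member known for coupling nerve activity to muscle gene expression, had 3.28, 2.92, 3.31, 3.06 and 3.18 FPKM in si-Control and 2.32, 2.65, 2.45, 2.46 and 2.44 in si-*Fndc1*. The groups did not overlap, and the gap was the largest of the members as a fraction of the control mean, at 21.9%. The log2 fold change was -0.35 ± 0.05 (SE, edgeR adjusted p = 0.000373). The offset brought it to -0.00 ± 0.04 (SE, edgeR adjusted p = 0.969). *Hdac9*, which in muscle includes a form that binds MEF2 without a deacetylase domain, had 0.966, 0.855, 0.934, 0.940 and 0.916 FPKM in si-Control and 0.844, 1.01, 0.884, 1.04 and 0.911 in si-*Fndc1*. Its groups overlapped in part, as si-*Fndc1* 1 lay below every control and si-*Fndc1* 2 and 4 above every control. *Hdac9* had a log2 fold change of 0.03 ± 0.07 (SE, edgeR adjusted p = 0.771) and an interval of 2 SE from -0.11 to 0.17. The table gives 1 value per gene, so forms of *Hdac9* were not told apart. With the offset *Hdac9* had 0.06 ± 0.07 (SE, edgeR adjusted p = 0.602).

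*Mef2d*, one of the MEF2 factors present in both myoblasts and myotubes, had 36.5, 31.8, 37.6, 38.0 and 36.8 FPKM in si-Control and 32.5, 32.9, 29.1, 28.8 and 27.6 in si-*Fndc1*. The lowest control, si-Control 2, lay below si-*Fndc1* 1 and 2, and the other 4 controls lay above all si-*Fndc1* libraries. The log2 fold change was -0.25 ± 0.06 (SE, edgeR adjusted p = 0.00949), a fall of 16.5% in mean FPKM (exact permutation test, two-sided, p = 0.0238). The offset left -0.10 ± 0.05 (SE, edgeR adjusted p = 0.190). *Mef2c*, which rises as myoblasts differentiate, had 11.9, 11.3, 11.4, 12.1 and 9.41 FPKM in si-Control and 12.8, 10.1, 10.2, 9.90 and 9.55 in si-*Fndc1*. Both the highest value, in si-*Fndc1* 1, and the lowest, in si-Control 5, went against the difference of the means. Its log2 fold change was -0.09 ± 0.09 (SE, edgeR adjusted p = 0.477), with an interval of 2 SE from -0.26 to 0.09. With the offset it was -0.12 ± 0.08 (SE, edgeR adjusted p = 0.332).

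*Mef2a*, which is expressed widely and also in myoblasts, had 13.3, 12.2, 12.5, 13.4 and 13.1 FPKM in si-Control and 13.96, 13.7, 12.8, 12.5 and 12.8 in si-*Fndc1*. The groups overlapped, with si-*Fndc1* 1 and 2 above every control. The log2 fold change was 0.04 ± 0.04 (SE, edgeR adjusted p = 0.519) and the interval of 2 SE ran from -0.04 to 0.12. With the offset it was 0.00 ± 0.03 (SE, edgeR adjusted p = 0.924). *Mef2b*, the MEF2 gene best known from B cells, had few reads, with 4, 24, 23, 8 and 0 counts in si-Control and 0, 8, 12, 20 and 19 in si-*Fndc1*. It was below the level for testing, and a difference was not detectable at this depth.

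**Figure D2:**
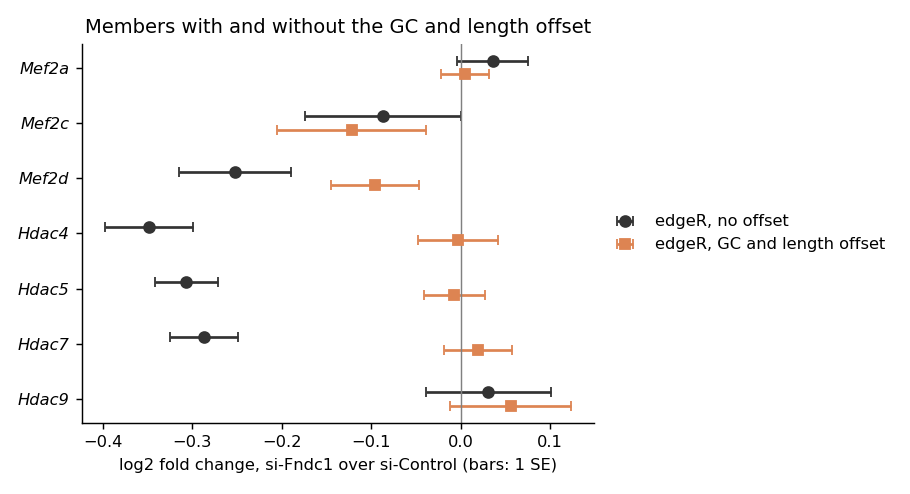
log2 fold change of the 7 tested members (horizontal axis, si-*Fndc1* over si-Control, bars of 1 SE) from edgeR without an offset (circles) and with the GC and length offset (squares). Without it *Hdac4*, *Hdac5*, *Hdac7* and *Mef2d* lie between -0.35 and -0.25, and with it all 7 members lie between -0.12 and 0.06.

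The members' position in the table is given as the authors list it, in coordinates whose build the table does not name (the submitters' processing notes name GRCm39). *Mef2a* is at chr7:66880911-67022606 (minus), *Mef2b* at chr8:70592361-70620138 (plus), *Mef2c* at chr13:83652153-83815197 (plus) and *Mef2d* at chr3:88049679-88079393 (plus). *Hdac4* is at chr1:91856501-92123416, *Hdac5* at chr11:102085258-102120992, *Hdac7* at chr15:97690545-97742383 and *Hdac9* at chr12:34097579-34967094, all on the minus strand. Whether counting used the strand is not given in the sources used here, so reads of overlapping genes cannot be told apart. *Hdac7* overlaps *Slc48a1* on the opposite strand, a heme transporter gene at 32.97 FPKM in si-Control with a log2 fold change of -0.18 (edgeR adjusted p = 0.0174). *Mef2a* overlaps *Lysmd4* on the opposite strand (2.46 FPKM in si-Control, log2 fold change -0.21, edgeR adjusted p = 0.0267), and *Mef2b* overlaps *Borcs8* on its own strand (7.31 FPKM in si-Control).

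The next values place the members among genes of like composition. The 4 members that fell had transcripts of 55.03% to 60.6% G and C, and the 3 tested members that were not called had 41.3% to 44.4%. Over 11185 tested genes log2 fold changes were lower at higher GC content (Spearman -0.523) and, with a weaker correlation, at greater implied length (Spearman -0.195). Both are descriptions across genes, which are not independent replicates. Among 414 genes within 1 percentage point of *Hdac7* the median log2 fold change was -0.23, and *Hdac7* at -0.29 lay inside their middle range of -0.35 to -0.10. *Hdac5*, at -0.31, lay close to the 25th percentile of -0.31 of its 740 neighbours, whose median was -0.18. *Hdac4* at -0.35 was below the 25th percentile of -0.27 of 1069 neighbours with a median of -0.14, and *Mef2d* at -0.25 was below that of -0.22 of 1186 neighbours with a median of -0.10.

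The members that were not called also lay under the median of the genes of their own composition. *Mef2a*, at 0.04, had 706 neighbours with a median of 0.16 and a 25th percentile of 0.05. *Mef2c*, at -0.09, had 624 neighbours with a median of 0.18 and a 25th percentile of 0.07. *Hdac9*, at 0.03, had 987 neighbours with a median of 0.12 and lay inside their middle range of 0.0024 to 0.235. Each of the 7 tested members was thus below the median of its GC neighbours. The members' genes are long. *Hdac4*, *Mef2c*, *Hdac9* and *Mef2a* had an implied length above that of at least 97.1% of the 11185 genes, *Hdac5* above 86.0%, *Hdac7* above 74.1% and *Mef2d* above 67.8%, where the median length was 4941 bases.

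**Figure D3:**
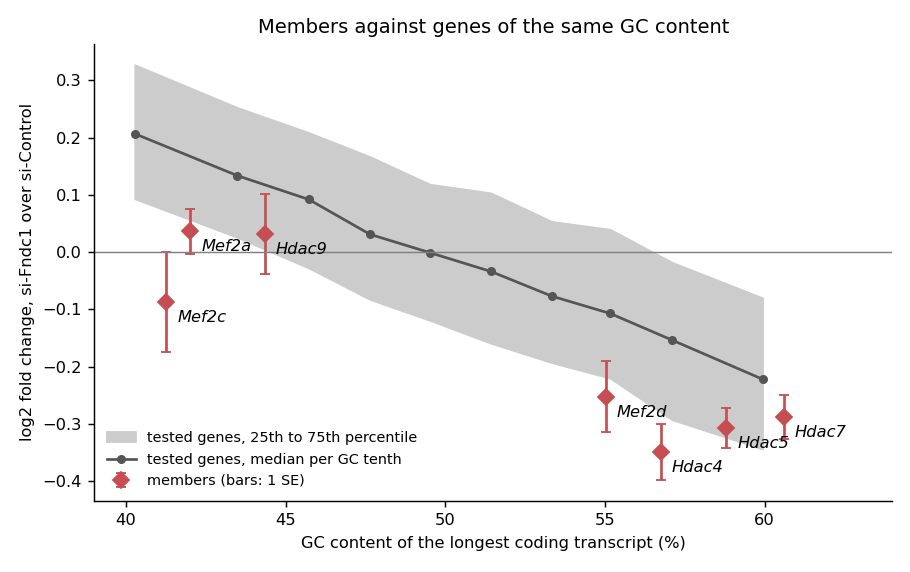
log2 fold change (vertical axis, si-*Fndc1* over si-Control) against GC content of the longest coding transcript in percent (horizontal axis). The line joins the medians of 10 equal groups of the 11185 tested genes, the grey band spans their 25th to 75th percentile, and diamonds are the 7 tested members with 1 SE. Medians run from 0.21 in the lowest group to -0.22 in the highest, and the members lie under the line.

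Offsets for 1 property at a time gave other calls, an alternative chosen after seeing the data. With GC content alone as the offset, 4 members fell (13.4% of genes fell and 12.9% rose), and they were not the same 4. *Hdac4* (log2 fold change -0.21, adjusted p = 0.00639) and *Hdac5* (-0.12, adjusted p = 0.0136) were still called in edgeR, *Mef2c* (-0.27, adjusted p = 0.0447) and *Mef2a* (-0.13, adjusted p = 0.0423) were called as well, and *Mef2d* (-0.15, adjusted p = 0.0824) and *Hdac7* (-0.07, adjusted p = 0.160) were not. With length alone *Hdac4*, *Hdac5*, *Hdac7* and *Mef2d* fell by 0.24, 0.26, 0.26 and 0.23 on the log2 scale (19.9% of genes fell), and *Mef2a* rose by 0.13 (edgeR adjusted p = 0.00187, where 19.7% of genes rose).

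The GC trend separated the libraries as the groups did. The slope of log2 CPM against GC content, relative to the mean of the 10 libraries, was positive in each control, from 0.0838 to 0.122 per 10 percentage points, and negative after the knockdown, from -0.134 to -0.0747. Group and GC trend therefore cannot be told apart by leaving out libraries. The steepest negative slope, in si-*Fndc1* 5, went with the lowest *Mef2d* of the 10 libraries (-0.27 on the log2 scale from their mean), and with the lowest *Hdac7* (-0.19), whereas the lowest *Hdac4* and *Hdac5* were in si-*Fndc1* 1.

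**Figure D4:**
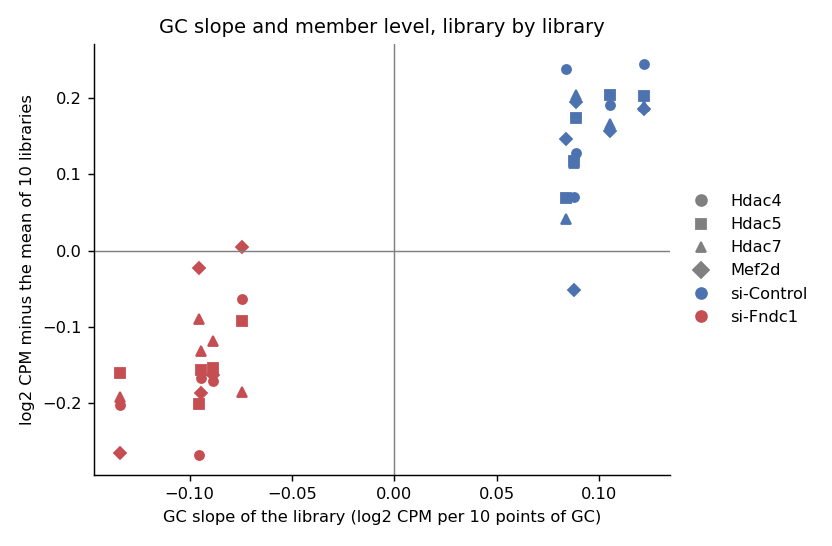
Slope of log2 CPM against GC content in each library (horizontal axis, log2 units per 10 percentage points) and log2 level of *Hdac4*, *Hdac5*, *Hdac7* and *Mef2d* relative to the mean of the 10 libraries (vertical axis). Colours are the groups and shapes the genes. All si-Control libraries have slopes above 0 and all si-*Fndc1* libraries below 0.

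The balance of the members was described without a test, on FPKM without the GC and length offset. With that offset the log2 fold changes of *Hdac4*, *Hdac5*, *Hdac7* and *Mef2d* were -0.0033, -0.0070, 0.019 and -0.10. *Mef2d* made up 59.9% ± 1.83 of the summed MEF2 FPKM in si-Control and 55.9% ± 1.24 in si-*Fndc1*, *Mef2a* 21.4% ± 0.757 and 24.4% ± 0.720, and *Mef2c* 18.6% ± 1.66 and 19.4% ± 1.36 (SD, n = 5 each). These shares rest on the implied lengths. Per kilobase of the longest coding transcripts, in TMM-scaled CPM, the si-Control means were 44.6 for *Mef2d*, 38.0 for *Mef2a* and 30.4 for *Mef2c*. Among the deacetylases *Hdac5* held 41.8% ± 0.382 and 41.4% ± 0.839, *Hdac7* 43.3% ± 0.719 and 43.4% ± 1.47, and *Hdac4* 11.5% ± 0.679 and 11.0% ± 0.457. The share of *Hdac9* was 3.36% ± 0.194 in si-Control and 4.19% ± 0.350 in si-*Fndc1*, with ranges of 3.21% to 3.69% and 3.79% to 4.65%. The summed deacetylase FPKM was 27.5 ± 1.04 in si-Control and 22.4 ± 0.212 in si-*Fndc1*, and the summed MEF2 FPKM 60.4 ± 3.07 and 53.9 ± 3.88. The ratio of deacetylase to MEF2 FPKM was 0.456 ± 0.0228 in si-Control and 0.416 ± 0.0277 in si-*Fndc1*, and its ranges, 0.424 to 0.479 and 0.376 to 0.441, overlapped.

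The genes around the members were taken from 8 lists of 122 genes, of which 108 were tested. In si-*Fndc1* 32 of the 108 fell (29.6%) and 11 rose (10.2%), beside 17.2% and 17.3% of all tested genes, and the median log2 fold change was -0.07 against 0.00 over all tested genes. With the GC and length offset 20 of the 108 fell (18.5%) and 11 rose (10.2%), beside 11.3% and 11.5% of the 11185 genes fitted with it. The same libraries gave the members and the lists, and the liver markers and the GC trend moved with the groups here too; the part of the liver signal was not tested.

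Of 14 other deacetylases, 2 fell, the sirtuins *Sirt7* (from 3.34 ± 0.133 to 2.66 ± 0.0703 FPKM, SD, n = 5 each) and *Sirt6* (from 8.40 ± 0.498 to 6.51 ± 0.531 FPKM). Their log2 fold changes were -0.32 (edgeR adjusted p = 0.000469) and -0.36 (edgeR adjusted p = 0.00206), and with the offset *Sirt6* was still called (-0.22, adjusted p = 0.0330), *Sirt7* was not (-0.10, adjusted p = 0.143), and *Hdac1* was called as lower (-0.10, adjusted p = 0.0260). *Hdac3*, the catalytic partner of class IIa HDACs in corepressor complexes, had -0.16 (edgeR adjusted p = 0.0535) and was not called, except without si-*Fndc1* 5 (-0.19, adjusted p = 0.0245). The median of the 14 was -0.08. Of all tested genes 17.2% fell and 17.3% rose (11.3% and 11.5% with the offset).

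Of the 19 kinases directed at class IIa HDACs 14 were tested. Of these, 6 fell and 1 rose, beside 17.2% and 17.3% of all tested genes (11.3% and 11.5% with the offset). The 3 salt-inducible kinases had the smallest p-values. *Sik1* went from 13.5 ± 0.666 to 10.3 ± 1.29 FPKM, *Sik2* from 2.07 ± 0.136 to 1.56 ± 0.156 and *Sik3* from 7.09 ± 0.625 to 5.56 ± 0.505 (SD, n = 5 each). Log2 fold changes were -0.38, -0.39 and -0.34, with edgeR adjusted p-values of 0.00418, 0.00254 and 0.00506. With the offset *Sik1* (-0.24, adjusted p = 0.0346) and *Sik2* (-0.24, adjusted p = 0.0340) were called and *Sik3* (-0.15, adjusted p = 0.211) was not. The others that fell were *Camk2g*, *Prkd2* and *Mark2*, and *Camk1* rose (0.20, edgeR adjusted p = 0.0123). With the offset *Camk1* (0.37, adjusted p = 0.00176) was still called in edgeR, *Camk2g*, *Prkd2* and *Mark2* were not (adjusted p = 0.333, 0.745 and 0.730), *Mark3* was called as higher (0.16, adjusted p = 0.00830) and *Prkaa1* as lower (-0.21, adjusted p = 0.00262). The number that fell was 3 without si-Control 1 or without si-*Fndc1* 4.

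Among the 14-3-3 proteins, which hold phosphorylated class IIa HDACs in the cytoplasm, 6 of 7 genes were tested. Of these, 2 fell and 1 rose, beside 17.2% and 17.3% of all tested genes (11.3% and 11.5% with the offset). *Ywhaz* (14-3-3 zeta) went from 63.6 ± 1.82 to 53.8 ± 1.18 FPKM and *Ywhag* from 64.4 ± 2.68 to 57.4 ± 1.61, and *Ywhab* went from 63.8 ± 1.53 to 71.2 ± 0.403 (SD, n = 5 each). Log2 fold changes were -0.23 (edgeR adjusted p = 0.000166) for *Ywhaz*, -0.16 (edgeR adjusted p = 0.00471) for *Ywhag* and 0.17 (edgeR adjusted p = 0.000643) for *Ywhab*. *Ywhaz* has a transcript of 45.6% G and C, and its fall was larger with the offset, at -0.35 (edgeR adjusted p = 5.86e-05). The calls of *Ywhag* (-0.08, adjusted p = 0.0894) and *Ywhab* (0.07, adjusted p = 0.0600) were lost with it, and *Ywhae* was called as lower (-0.25, adjusted p = 0.0274).

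Of 17 kinases and phosphatases directed at MEF2, 14 were tested. Of these, 3 fell and 2 rose, beside 17.2% and 17.3% of all tested genes (11.3% and 11.5% with the offset). Among genes of calcineurin, the calcium-dependent phosphatase that activates MEF2 and NFAT, *Ppp3ca*, which codes for a catalytic subunit, fell from 13.2 ± 0.298 to 11.7 ± 0.169 FPKM (log2 fold change -0.17, edgeR adjusted p = 0.000817), and *Ppp3r1*, which codes for a regulatory subunit, rose from 44.8 ± 1.26 to 53.1 ± 0.856 FPKM (SD, n = 5 each; 0.25, edgeR adjusted p = 0.000124). The other catalytic genes, *Ppp3cb* (0.25, edgeR adjusted p = 0.0642) and *Ppp3cc* (0.05, adjusted p = 0.691), were not called. With the offset the fall of *Ppp3ca* was still called (-0.18, edgeR adjusted p = 0.00114) and the rise of *Ppp3r1* was not (0.00, adjusted p = 0.944). *Ppp2ca*, the catalytic subunit of protein phosphatase 2A, rose by 0.23 on the log2 scale (edgeR adjusted p = 0.000222), and *Mapk11* and *Rcan1* fell. With the offset *Ppp2ca* (0.15, adjusted p = 0.00689) and *Mapk11* (-0.22, adjusted p = 0.0451) were still called in edgeR, *Rcan1* was not (adjusted p = 0.0951), and *Mapk12* was called as higher (0.27, adjusted p = 0.0409).

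Corepressors and coactivators were counted separately. Of 12 corepressors 4 fell, *Cabin1*, *Bcl6* and *Cbx5* among them, and 0 rose. The shares of all tested genes were 17.2% and 17.3%, and 11.3% and 11.5% with the offset. *Cabin1*, a MEF2 and calcineurin inhibitor, went from 6.10 ± 0.193 to 4.97 ± 0.301 FPKM (SD, n = 5 each), a log2 fold change of -0.29 (edgeR adjusted p = 0.000850). It was not called with the offset (0.01, edgeR adjusted p = 0.879), whereas *Bcl6*, a repressor that binds class IIa HDACs, was (-0.15, adjusted p = 0.0120). In all, 2 corepressors fell with the offset, *Bcl6* and *Cbx5*, and 2 rose, *Ctbp1* (0.11, adjusted p = 0.0266) and *Ctbp2* (0.28, adjusted p = 0.0137).

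Of 11 coactivators 4 fell and 1, *Kat2b*, rose, beside 17.2% and 17.3% of all tested genes (11.3% and 11.5% with the offset). *Crebbp* and *Ep300*, the paired acetyltransferases that MEF2 binds when class IIa HDACs are away, had the smallest p-values. *Crebbp* went from 4.09 ± 0.326 to 2.45 ± 0.158 FPKM and *Ep300* from 10.4 ± 0.960 to 7.72 ± 0.426 FPKM (n = 5 each, ± SD). Their log2 fold changes were -0.73 (edgeR adjusted p = 2.84e-05) and -0.43 (edgeR adjusted p = 0.000503), and both were still called with the offset, at -0.50 (adjusted p = 5.31e-05) and -0.29 (adjusted p = 0.000718). *Carm1*, an arginine methyltransferase, had -0.25 (edgeR adjusted p = 0.00804), and *Maml1* fell as well. With the offset *Carm1* (-0.08, adjusted p = 0.320), *Maml1* (-0.04, adjusted p = 0.673) and *Kat2b* (0.05, adjusted p = 0.395) lost their calls in edgeR, and *Wwtr1* was called as lower (-0.16, adjusted p = 0.00463). The rise of *Kat2b* was lost in 8 of the 10 fits that left out a library, all but those without si-*Fndc1* 2 or 4.

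Of 14 DNA-binding partners of MEF2, 12 were tested. Of these, 6 fell and 1 rose, beside 17.2% and 17.3% of all tested genes (11.3% and 11.5% with the offset). *Tcf3*, the E-protein that pairs with MyoD factors, had a log2 fold change of -0.40 (edgeR adjusted p = 7.83e-05), *Srf*, the serum response factor, -0.48 (edgeR adjusted p = 0.000524) and *Nfatc1* -0.29 (edgeR adjusted p = 0.00129). The other falls were those of *Nfatc4*, *Tcf4* and *Tead4*. *Myod1* rose from 41.9 ± 0.896 to 46.7 ± 2.83 FPKM (SD, n = 5 each), by 0.16 on the log2 scale (edgeR adjusted p = 0.0162). With the offset *Tcf3*, *Srf* and *Myod1* were still called, at -0.14, -0.30 and 0.26 (adjusted p = 0.0336, 0.00754 and 0.00135 in edgeR). *Nfatc1*, *Nfatc4*, *Tcf4* and *Tead4* lost their calls (adjusted p = 0.0704 to 0.803), and *Myog* (-0.16, adjusted p = 0.0332) and *Myf5* (-0.21, adjusted p = 0.0190) were called as lower.

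Genes known as MEF2 targets went both ways. Of 29 such genes 26 were tested, 5 rose (*Smpx*, *Ckm*, *Eno3*, *Myl1* and *Aldoa*), 5 fell (*Jun*, *Klf4*, *Ttn*, *Nr4a1* and *Xirp1*) and 16 were not called, with a median log2 fold change of -0.03. Over all tested genes 17.3% rose and 17.2% fell, so the counts in this list stand close to those shares. *Smpx*, a small muscle protein, had the largest rise, from 11.0 ± 0.694 to 19.6 ± 0.960 FPKM (n = 5 each, ± SD) and by 0.84 on the log2 scale (edgeR adjusted p = 7.93e-06). *Ckm*, muscle creatine kinase, went from 66.3 ± 3.29 to 86.2 ± 4.88 FPKM (0.39, edgeR adjusted p = 0.000201). Both rises were called with the offset at 0.57 (adjusted p = 0.000174 for *Smpx* and 4.59e-05 for *Ckm*). *Eno3*, muscle enolase, had 0.22 (edgeR adjusted p = 0.0160) and lost its call with the offset (adjusted p = 0.0924), as did *Myl1* (adjusted p = 0.455), whereas *Aldoa* was still called (0.22, adjusted p = 0.00108). *Des*, which codes for desmin, was not called without the offset and was called as higher with it (0.10, adjusted p = 0.0380). The number that rose was 3 without si-Control 1 and without si-*Fndc1* 1, 3 or 4. It was at most 4, in place of 5, in every fit that left out a library. With replicate number as a block in edgeR 2 rose and 4 fell, beside 1796 and 1776 of the 13548 tested genes. In limma on quantile-normalized log2(FPKM + 1) 2 rose and 8 fell, beside 2134 and 2542 of the 13548 tested genes.

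*Jun* went from 47.3 ± 1.04 to 38.9 ± 2.01 FPKM (n = 5 each, ± SD) and had a log2 fold change of -0.28 (edgeR adjusted p = 0.000426), *Klf4* had -0.23 (edgeR adjusted p = 0.00140) and *Nr4a1* -0.40 (edgeR adjusted p = 0.00889). *Ttn*, which codes for titin, went from 13.5 ± 1.32 to 9.86 ± 1.41 FPKM (-0.45, edgeR adjusted p = 0.00624), and *Xirp1* had -0.22 (edgeR adjusted p = 0.0299), a call lost without si-Control 1, 4 or 5 or without si-*Fndc1* 3, 4 or 5 (adjusted p up to 0.0711). With the offset *Jun* (-0.18, adjusted p = 0.00544) and *Klf4* (-0.17, adjusted p = 0.0208) were still called in edgeR, *Nr4a1* was not (-0.25, adjusted p = 0.0801), *Ttn* turned to 0.10 (adjusted p = 0.159), and *Xirp1* was not called (-0.01, adjusted p = 0.896).

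Promoters of the target list were searched in the same way, and 7 of 28 (23 genes) held the MEF2 element, 25% against 3.19% of all promoters. The windows of *Jun* and *Ttn* are shown since both genes fell without the offset, 60 bases each from RefSeq promoters of GRCm38.p6 with the element in capitals.
Jun, chr4:95052221-95052280, minus strand: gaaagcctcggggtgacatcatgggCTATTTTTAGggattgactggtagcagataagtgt
Ttn, chr2:76982679-76982738, minus strand: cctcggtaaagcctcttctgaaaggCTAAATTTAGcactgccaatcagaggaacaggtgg
The element began 33 bases before the start of *Jun* and 166 before that of *Ttn*. Of the other promoters with the element, those of *Srpk3*, *Xirp2*, *Pgam2*, *Klf2* and *Myh1*, none belonged to a gene that was called.

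**Figure D5:**
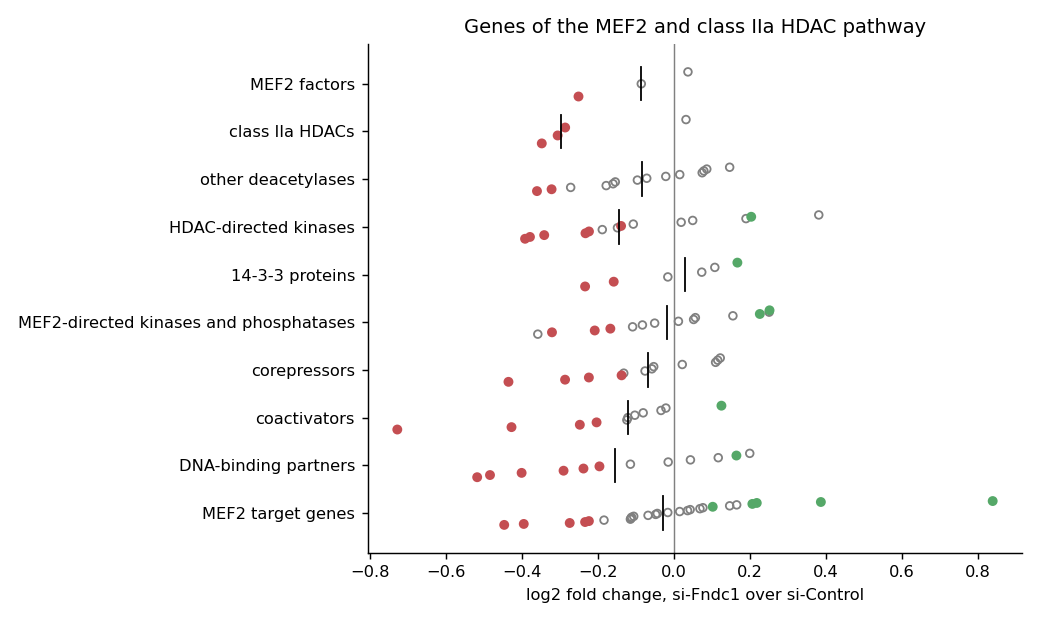
log2 fold change (horizontal axis, si-*Fndc1* over si-Control) of each tested gene of the members and the 8 lists (rows). Each circle is a gene; filled red circles fell and filled green circles rose at an edgeR adjusted p-value under 0.05, open circles were not called, and the black bar is the median of the row. The row of class IIa HDACs, of 4 genes, has the lowest median, at -0.30, and MEF2 target genes spread from -0.45 to 0.84 around -0.03. These values are without the offset. With the GC and length offset, which is not drawn, the median of class IIa HDACs was 0.0080. The lowest median was then that of DNA-binding partners, at -0.12.

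The genes most like each member were named by the correlation of log2 CPM over the 10 libraries after each group's mean was subtracted, as a description. The points share library, depth and composition, and many genes were searched. *Mef2d* was closest to *Zswim8* (Pearson r = 0.98, Spearman rho = 0.99) and *Plxnb2* (0.97 and 0.99). *Mef2a* was closest to *Gm13372* (0.97 and 0.99) and *Wdr59* (0.97 and 0.94), and *Mef2c* to *Phkb* (0.96 and 0.89) and *Gm11663* (0.93 and 0.85). Among the deacetylases *Hdac4* was closest to *Evi5* (0.94 and 0.95) and *Thbs1* (0.93 and 0.94), *Hdac5* to *Ulk1* (0.92 and 0.93) and *Metap1d* (0.91 and 0.82), *Hdac7* to *Prkcsh* (0.97 and 0.98) and *Gm12291* (0.94 and 0.99), and *Hdac9* to *Zfp469* (0.92 and 0.84) and *Mrps11* (0.91 and 0.92). No member was among the 2 genes closest to another member. Between members *Mef2a* and *Mef2d* had 0.81 and 0.85, and *Hdac4* and *Hdac9* 0.72 and 0.68.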

How the data were processed

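RNA-sequencing of 5 si-Control and 5 si-*Fndc1* libraries of C2C12 cells was used, with groups and replicate numbers from the sample labels. The authors deposited 1 table that gives reads counted per gene and library beside FPKM values; the counts are not normalized, and the FPKM values are counts divided by gene length and library size, listed as 0.0001 where no read was counted. The study's methods name TopHat, mm10 and htseq-count, the series text STAR and mm9, and the submitters' processing notes cutadapt 1.9, FastQC and GRCm39, so aligner and build are uncertain. The methods name 4 libraries without saying which, and other serum and transfection reagents than the labels; all 10 labelled libraries in the table were used, so n = 5 per group follows the labels.

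Counts were tested with edgeR 4.0.16 (limma 3.58.1, R 4.3.3; quasi-likelihood, TMM, no replicate term) over the 13548 genes that averaged 0.5 FPKM or more. The offset was the trend of log counts with transcript GC content (NCBIM37) and implied length, fitted in each library by robust splines of 5 degrees of freedom over 11185 genes. FPKM means were compared by two-sided exact permutation tests. DESeq2 1.42.0, limma on log2(FPKM + 1), other filters and leaving out each library were alternatives. Counts of all 20 pairs within a group differed by more than sampling noise (smallest ratio of chi-square to degrees of freedom, 41.5). Scripts were tested on simulated data. Python 3.11.15, numpy, pandas and scipy were used for tables.

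The members and lists were chosen with earlier results of these data known. The genes named are the 8 members, *Fndc1*, the 3 tested genes with the smallest p-value of each list (8 for MEF2 target genes), calls of lists with at most 5 in a direction, and the 2 genes most like each member; the other kinases and partners that fell, genes called with the offset alone, the other catalytic calcineurin genes and overlapping genes were named after their values were seen. Of the genes this rule names, 1 is not reported here. Columns with no sample numbered 0. The authors' annotation columns were used for symbols and positions.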

Additional observations from a re-analysis of the deposited data

Results flagged for a closer look

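Of 22 groups of 5 libraries checked with Dixon's test (critical value 0.710, which chance passes in about 5% of groups), 2 held a library far from the other 4. *Mef2c* in si-*Fndc1* 1 was at 12.8 FPKM, where the other si-*Fndc1* libraries were at 9.55 to 10.2. *Mef2d* in si-Control 2 was at 31.8 FPKM, where the other controls were at 36.5 to 38.0. Without si-*Fndc1* 1 or without si-Control 2, *Mef2c* was not called and *Mef2d* was.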

How the results depend on the processing

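*Hdac4*, *Hdac5*, *Hdac7* and *Mef2d* were called as lower with DESeq2, with its size factors in edgeR, with no filter, in 3 limma fits on log2 FPKM, with each library left out, and over the 11185 genes without an offset. With a mean FPKM of at least 5 *Hdac4* was not tested and the other 3 were called. Leaving out each library gave -0.38 to -0.33 for *Hdac4*, -0.33 to -0.29 for *Hdac5*, -0.31 to -0.27 for *Hdac7*, -0.30 to -0.22 for *Mef2d* and -0.010 to 0.068 for *Hdac9*, and FPKM ratios of 0.988 to 1.04 for *Hdac9*. Without si-*Fndc1* 5 there were 2 kinases directed at class IIa HDACs that rose, and without si-Control 4 there were 2 DNA-binding partners that rose, in place of 1 each. *Hdac9* was also -0.0059 in limma on quantile-normalized values.

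With the GC and length offset 0 members fell, as *Hdac4* had -0.0033, *Hdac5* -0.0070, *Hdac7* 0.019 and *Mef2d* -0.10, and 1264 genes fell and 1283 rose over the whole table; 20 genes of the 8 lists fell, *Cabin1* had 0.0094 and *Ttn* 0.10. The offset with the replicate block gave -0.0039, -0.0070, 0.019 and -0.10 for these members (0 called), 811 and 845 genes, 11 list genes that fell, 0.0087 for *Cabin1* and 0.10 for *Ttn*. GC content alone gave 1496 and 1445 genes, -0.15 for *Mef2d*, -0.073 for *Hdac7*, -0.086 for *Hdac9*, -0.13 for *Mef2a* and -0.27 for *Mef2c*; length alone gave 1 member that rose, *Mef2a* at 0.13, with *Mef2c* at 0.019 and *Ttn* at 0.12. The cause was not tested.

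The replicate block alone left 4 members called (*Mef2d* at an adjusted p-value of 0.0462 in edgeR) and 6 list genes that rose in place of 11. With that block 1776 of the 13548 tested genes fell and 1796 rose. The deviations of same-numbered libraries from their group means had correlations of -0.05 to 0.06. These values do not tell whether such libraries were cultured or prepared together. On TMM-scaled counts, which are not per length and carry no offset, the ratio of deacetylases to MEF2 was 0.422 in si-Control and 0.372 in si-*Fndc1*. The *Mef2d* share was 37.2% and 33.5%. Depth limits *Mef2b* alone among the members, at 24 counts or fewer per library.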

Other observations

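Myogenic identity markers moved both ways in si-*Fndc1*. Of 10 such genes, all tested, 4 rose (*Tnnt1*, *Mymk*, *Myod1* and *Ckm*), 1 fell (*Cdh15*) and 5 were not called, where 17.3% of all tested genes rose and 17.2% fell. *Tnnt1*, slow troponin T, went from 110.7 ± 5.30 to 141.2 ± 16.7 FPKM (n = 5 each, ± SD) and had 0.36 on the log2 scale (edgeR adjusted p = 0.00308), and *Mymk*, the membrane fusion protein myomaker, from 320.03 ± 15.6 to 380.8 ± 42.0 FPKM (0.26, edgeR adjusted p = 0.0188). *Cdh15*, M-cadherin, went from 111.2 ± 2.18 to 97.9 ± 3.46 FPKM (-0.18, edgeR adjusted p = 0.00208). With the GC and length offset *Tnnt1* was still called (0.35, adjusted p = 0.00980), and *Mymk* (0.21, adjusted p = 0.102) and *Cdh15* (0.03, adjusted p = 0.541) were not. *Myog*, myogenin, had -0.12 (edgeR adjusted p = 0.137) and -0.16 with the offset (adjusted p = 0.0332).

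Of 5 blood markers 2 were tested and 0 called, and their sum ranged over control libraries from 1.18 to 2.25 FPKM and over knockdown libraries from 1.92 to 2.96. Of 5 neuronal markers 2 were tested and 1 rose, *Stmn2* (0.31, edgeR adjusted p = 0.00753), while *Rbfox3* and *Snap25* had no counts. With the GC and length offset 2 neuronal markers rose. The neuronal sum ranged from 10.41 to 11.79 FPKM over control libraries and from 11.81 to 14.55 FPKM over knockdown libraries.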
